A study of Mus musculus with 8 samples.

Results

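The genes described here encode the pore-forming and auxiliary subunits of voltage-gated sodium channels (Scn genes) and voltage-gated calcium channels (Cacna1, Cacna2d, Cacnb and Cacng genes) in mouse brain. They were chosen as the protein-coding entries of the deposited gene table whose symbols belong to these families and that had at least 10 counts in at least 2 libraries, which kept 38 of 40 family entries among 54532 genes. The 38 genes comprise 9 sodium channel alpha subunits, 4 sodium channel beta subunits, 6 high-voltage-activated and 3 low-voltage-activated calcium channel alpha-1 subunits, and 4 alpha-2-delta, 4 beta and 8 gamma subunits. The entries below the minimum were Cacna1f, a retinal calcium channel with at most 9 counts in a library, and Scn4a, the skeletal muscle sodium channel with 1 count in 1 library. Just inside the minimum were Cacng1, Scn11a and Scn10a, which had at most 15, 14 and 20 counts in any library.

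RNA sequencing of brains from PBS-perfused mice covered 4 groups of 2 libraries each. These were CAA mice after chronic restraint stress (CAA stress), CAA mice given the mock treatment (CAA mock), wild-type mice after the same stress (WT stress) and wild-type mice given the mock treatment (WT mock). CAA, cerebral amyloid angiopathy, is the deposition of amyloid in the walls of brain vessels. The study asked how chronic stress acts on the brain in CAA. The sources used here do not give the transgene or strain behind the CAA label, its promoter, the age and sex of the mice or the length of the stress. The labels give no sign that libraries were made from pooled animals, nor do they say which part of the brain each holds, and p-values measure the spread between these 8 libraries.

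The libraries held 17275201 to 18894657 counts. Levels within a gene are given as CPM, counts scaled to a common library size with edgeR's TMM factors. All 12 pan-neuronal markers were measured, with summed levels of 8193 to 9670 CPM. Libraries within a group differed in regional markers. The summed level of 12 striatal markers was 207 CPM in CAA mock 2 and 229 CPM in WT mock 1, against 858 to 1674 CPM in the other 6 libraries. The same 2 libraries were lowest for hypothalamic markers, with summed levels of 27.7 and 7.10 CPM against 62.5 to 169 CPM, and for olfactory bulb markers, with mean log2 levels of -1.06 and -1.68 against -0.89 to 1.34 around the markers' own means. The summed level of the bulb markers was 104 and 43.1 CPM in them, against 77.6 to 221 CPM in the other 6. Xist and Y-linked counts read as female in CAA stress 1 and WT mock 1 and as male in the other 6. In bulk tissue, fewer cells of a type and less RNA per cell cannot be told apart.

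Voltage-gated sodium channels open when a neuron is depolarised and carry the upstroke of the action potential; a single alpha subunit forms the pore, and beta subunits adjust its gating and anchor it in the membrane. Voltage-gated calcium channels turn depolarisation into calcium entry, which triggers transmitter release, gene regulation and burst firing. Their alpha-1 subunit forms the pore, the intracellular beta and extracellular alpha-2-delta subunits bring high-voltage-activated channels to the membrane, and most brain gamma subunits are better known as auxiliary proteins of AMPA-type glutamate receptors (TARPs).

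Promoters are shown for 3 genes on which the comparisons below turn, chosen after their values were seen. Cacnb4 had the smallest p for the genotype, Cacna1b is a presynaptic calcium channel and Cacna1i a low-voltage-activated one with small p-values for stress in CAA mice. The sequences are RefSeq's (GRCm38.p6), run 5′ to 3′ on the gene's strand and span 300 bases around an annotated start, and capitals mark the GC box GGGCGG on either strand, CCGCCC being its reverse complement. They lie at chr2:52676094-52676393 on the minus strand for Cacnb4, chr2:24763103-24763402 on the minus strand for Cacna1b and chr15:80286988-80287287 on the plus strand for Cacna1i.
Cacnb4: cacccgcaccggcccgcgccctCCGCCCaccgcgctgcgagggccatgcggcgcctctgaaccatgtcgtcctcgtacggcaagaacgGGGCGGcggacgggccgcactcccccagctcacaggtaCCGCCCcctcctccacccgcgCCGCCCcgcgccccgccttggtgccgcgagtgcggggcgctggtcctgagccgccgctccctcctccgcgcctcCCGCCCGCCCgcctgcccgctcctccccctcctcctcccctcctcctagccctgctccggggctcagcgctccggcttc
Cacna1b: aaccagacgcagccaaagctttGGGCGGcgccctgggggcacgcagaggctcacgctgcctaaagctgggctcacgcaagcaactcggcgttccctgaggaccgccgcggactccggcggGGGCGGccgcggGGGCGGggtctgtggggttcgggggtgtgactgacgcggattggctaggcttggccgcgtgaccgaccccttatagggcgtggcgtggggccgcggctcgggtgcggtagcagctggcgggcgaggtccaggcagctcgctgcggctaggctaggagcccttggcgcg
Cacna1i: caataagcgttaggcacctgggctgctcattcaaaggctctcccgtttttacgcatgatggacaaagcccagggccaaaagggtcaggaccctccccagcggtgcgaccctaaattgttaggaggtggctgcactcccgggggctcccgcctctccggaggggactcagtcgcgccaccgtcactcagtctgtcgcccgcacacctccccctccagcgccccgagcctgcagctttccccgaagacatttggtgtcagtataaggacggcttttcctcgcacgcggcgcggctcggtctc
The Cacnb4 window is 1 of 3 RefSeq entries for that gene. It is set around a start 688 bases inside the annotated gene, while the other 2 windows are set at their gene's own start. The Cacnb4 window held 6 GC boxes, 2 of them overlapping, and 40 CpG dinucleotides. The Cacna1b window held 3 GC boxes and 35 CpG dinucleotides, while the Cacna1i window held no GC box and 23 CpG dinucleotides. Over all 32851 RefSeq promoter windows the median was 7 CpG dinucleotides (quartiles 3 and 20), so these 3 windows were above the upper quartile. RefSeq windows were found for 28 of the 38 genes, 39 windows in all. The GC box was in 38.5% of these 39 windows and in 35.7% of all windows. The TATA box TATAAA was in 5.13% against 13.6%, and the cAMP response element TGACGTCA was in 0 of the 39 against 1.79% of all windows. These matches describe letters in a window, and binding was not measured.

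Levels were compared between genes per length, as the authors' FPKM, which scale counts by gene length and library size, averaged over 8 libraries with the SD. Among sodium channel pores, Scn2a, the early axonal channel of excitatory neurons, had 18.0 ± 3.07 FPKM, Scn8a, the main channel of mature axon initial segments and nodes, 11.4 ± 2.25 FPKM, and Scn1a, prominent in fast-spiking interneurons, 10.9 ± 2.69 FPKM. The ranges of Scn8a and Scn1a overlapped across libraries. Scn3a, best known from embryonic brain, followed with 2.97 ± 0.577 FPKM. The glial and sodium-sensing channel Scn7a and the peripheral channel Scn9a averaged 0.832 and 0.428 FPKM, and the sensory-neuron channels Scn11a and Scn10a averaged 0.0508 and 0.0478 FPKM.

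The beta subunits of sodium channels Scn2b, Scn3b and Scn4b averaged higher levels per length than the pores Scn2a, Scn8a and Scn1a. Scn2b had 55.9 ± 4.88 FPKM and Scn3b 21.4 ± 2.55 FPKM. Scn4b, enriched in striatal neurons and large-caliber axons, had 40.1 ± 20.6 FPKM, a spread far wider than that of Scn2b or Scn3b.

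Of the calcium channel pores, Cacna1i and Cacna1a were close, at 9.46 ± 2.18 and 9.23 ± 1.94 FPKM. Cacna1a and Cacna1b, the P/Q-type and N-type channels of presynaptic terminals, made up 32.9% and 26.5% of the high-voltage-activated FPKM on average, and the R-type Cacna1e 23.5%. The L-type channels Cacna1c and Cacna1d, known for linking activity to transcription, made up 9.33% and 7.04%. The skeletal muscle L-type channel Cacna1s was at 0.202 ± 0.0874 FPKM. Among the T-type channels, which support burst firing, Cacna1g had 5.58 ± 1.98 FPKM and Cacna1h 4.54 ± 0.959 FPKM, both below Cacna1i in every library's share of the class.

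Of the subunits that carry pores to the membrane, Cacnb3 had 59.0 ± 9.08 FPKM, Cacnb1 22.8 ± 4.97, Cacnb4 22.3 ± 4.66 and Cacnb2 2.55 ± 0.224 FPKM, and Cacnb1 and Cacnb4 overlapped. Cacna2d1, a gabapentin target, had 19.2 ± 3.002 FPKM, Cacna2d3 8.04 ± 1.41, Cacna2d2 4.59 ± 0.971 and the retinal subunit Cacna2d4 0.326 ± 0.0705 FPKM. The gamma family was led by Cacng7 with 88.7 ± 8.64 FPKM, followed by the TARPs Cacng3, Cacng8, Cacng4 and Cacng2 at 27.2, 24.9, 16.6 and 13.4 FPKM. Cacng5 had 5.68 ± 2.61 FPKM, and the muscle subunits Cacng6 and Cacng1 had 0.711 and 0.190 FPKM.

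**Figure D1:**
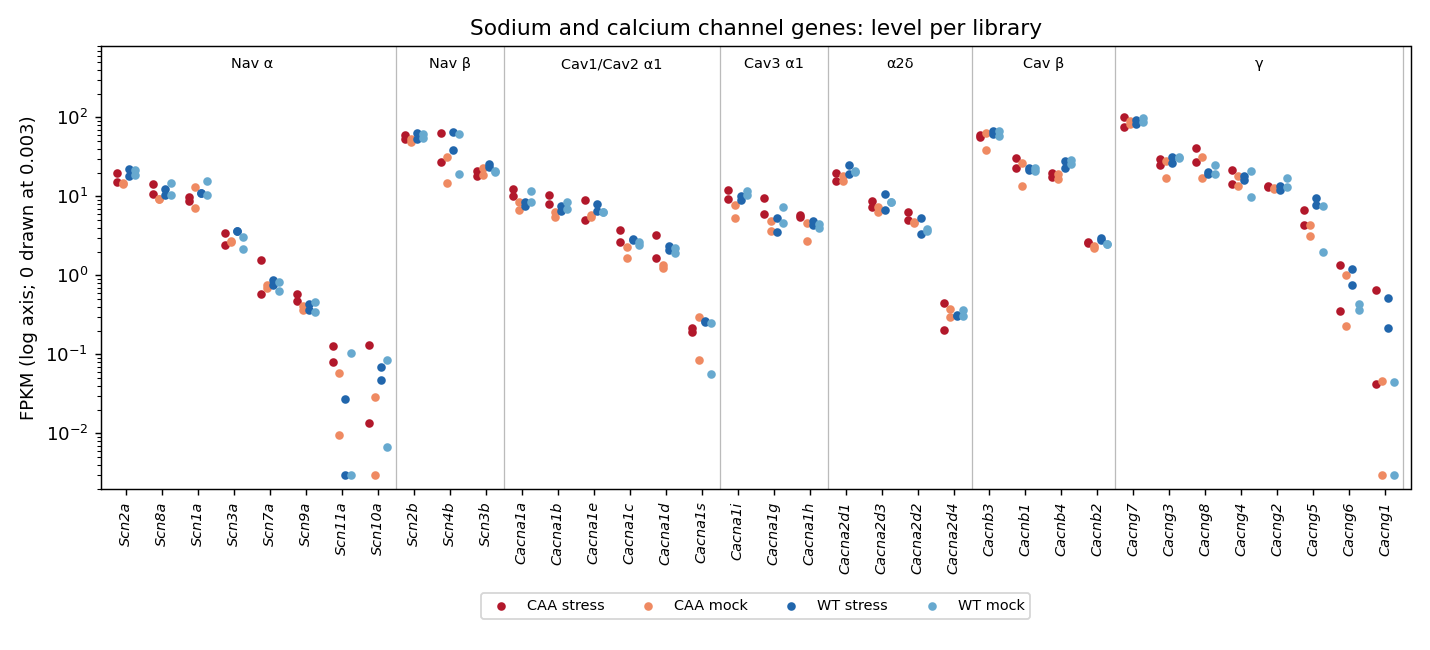
FPKM per library (log axis, values of 0 drawn at 0.003) for the channel genes, grouped by subunit class and ordered by mean within a class; each point is 1 library, coloured by group. Cacng7 averages 88.7 FPKM, and Scn4b and Cacng5 are spread wider than the genes beside them.

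Across libraries the channel genes did not vary evenly. Of the 38 genes, 15 had their highest CPM in CAA stress 2 (39.5%, against 18.0% of all tested genes) and 19 had their lowest in CAA mock 2 (against 16.9%). On the log2 scale, the median distance of the 38 genes from their own mean was 0.05 and 0.20 in CAA stress 1 and 2, -0.11 and -0.33 in CAA mock 1 and 2, 0.10 and 0.04 in WT stress 1 and 2, and -0.03 and 0.03 in WT mock 1 and 2. The 2 CAA groups thus held both extremes. Myelin markers ran the other way in those libraries: 10 of 10 were measured, none at 0 in all libraries, and their summed level was 6168 CPM in CAA stress 2 and 15743 CPM in CAA mock 2, against 6068 to 14341 CPM in the other 6 libraries. The share of counts from the mitochondrial genome was 6.10% in CAA stress 2 and 9.99% in CAA mock 2, the lowest and highest of the 8 libraries. Inhibitory and excitatory neuron markers were lowest in CAA mock 2, while pan-neuronal markers were not. Inhibitory neuron markers (12 of 12 measured, none at 0 throughout) had mean log2 levels of 0.39 in CAA stress 2 and -0.67 in CAA mock 2. The other 6 libraries were at -0.30 to 0.33. Excitatory forebrain markers (12 of 12) were at 0.25 and -0.30, against -0.24 to 0.49. The summed levels of these 2 lists ranged from 991 to 1495 CPM and from 4170.5 to 6307 CPM, both lowest in CAA mock 2. Pan-neuronal markers were at 0.14 in CAA stress 2, the highest, and -0.07 in CAA mock 2, and lowest in WT mock 2 (-0.10). Their summed level was lowest in CAA stress 1, at 8193 CPM, against 8586 CPM in CAA mock 2. The part of any of these in the channel values was not tested.

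**Figure D2:**
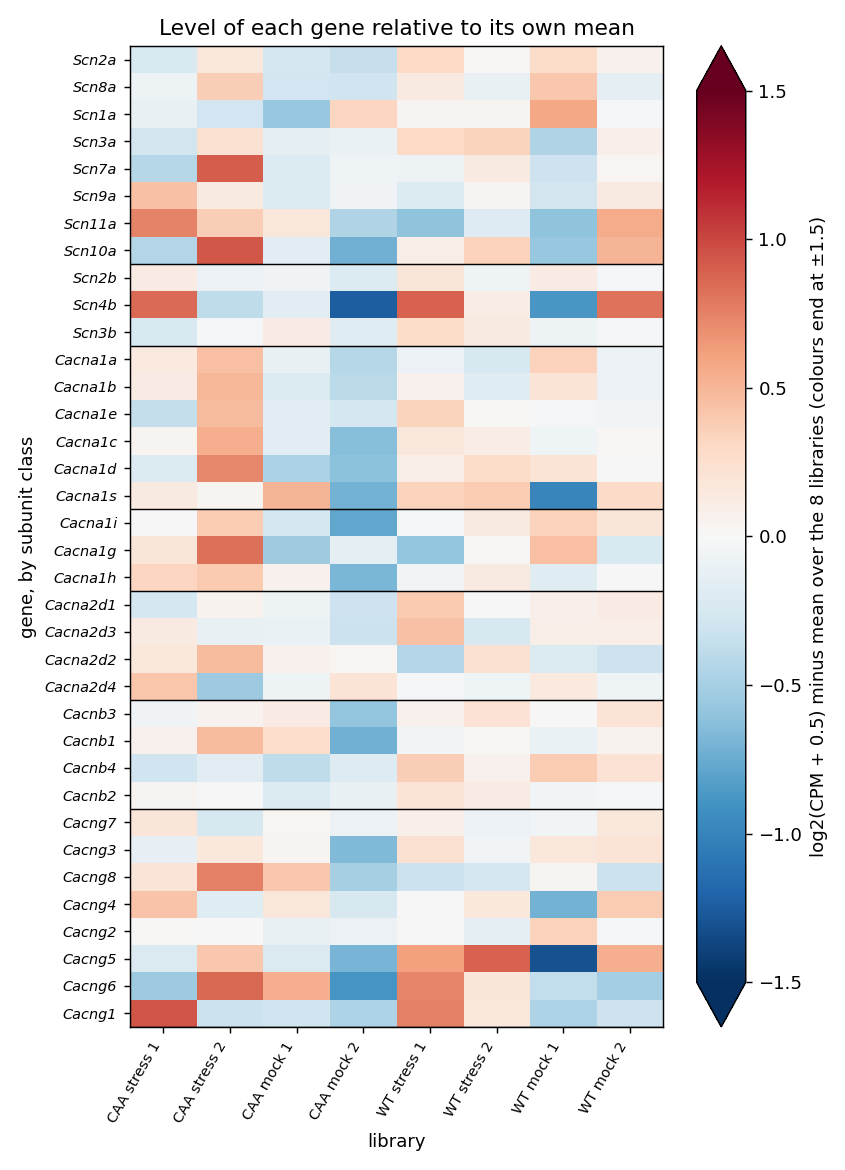
Log2(CPM + 0.5) minus the gene's mean over 8 libraries, for the channel genes (rows, by subunit class) in each library (columns); red is above and blue below the gene's mean. Most genes are blue in CAA mock 2, where the median is -0.33, and red in CAA stress 2, where it is 0.20.

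Cacnb4 was lower in every CAA library than in any WT library, although the difference did not pass the adjusted threshold of 0.05 in edgeR. Cacnb4 (ENSMUSG00000017412, chr2:52428320-52676831, minus strand, mm10) encodes a beta subunit of presynaptic calcium channels whose loss causes ataxia and seizures in the lethargic mouse. It had 161, 177, 151 and 173 CPM in CAA stress 1 and 2 and CAA mock 1 and 2, against 255, 207, 258 and 230.0 CPM in WT stress 1 and 2 and WT mock 1 and 2. The highest CAA library was below the lowest WT library, and the means were 166 ± 11.8 CPM in CAA and 238 ± 24.0 CPM in WT (SD, n = 4 each). Averaged over the treatments, the log2 fold change was -0.52 ± 0.12 (SE), with an unadjusted p of 8.38e-04 and an edgeR adjusted p of 0.497. With DESeq2 the same fold had an adjusted p of 0.0259, and Cacnb4 was the 1 channel gene called, where DESeq2 called 0.332% of the genes it adjusted. The fold was -0.59 ± 0.16 under mock treatment and -0.45 ± 0.16 under stress, each at an edgeR adjusted p above the threshold (0.998 and 0.579), and the value under stress was -0.29 without WT stress 1.

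Over the whole family, edgeR called 0 of 38 genes for CAA averaged over treatment, and 0.0116% of 17182 tested genes. Without adjustment, 4 of 38 had p under 0.05, against 8.38% of all tested genes. Leaving out WT stress 1 left 1 such gene, and leaving out CAA stress 2 or CAA mock 1 gave 6. No gene had all CAA libraries above all WT libraries, against 2.0% of tested genes, and only Cacnb4 had all of them below, against 2.76%. The median log2 fold change of the 38 genes was -0.10, beside 0.00 for all tested genes, and 24 of 38 were lower, against 49.8% of tested genes. Leaving out CAA mock 1 gave a median of -0.16, leaving out CAA mock 2 one of -0.05, leaving out WT stress 1 one of -0.03 and leaving out WT mock 2 one of -0.01.

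The next genes by p for the averaged CAA difference were pores and alpha-2-delta subunits. Scn2a had 195, 257, 192 and 181 CPM in the 4 CAA libraries, against 283, 232, 278 and 239 CPM in the 4 WT libraries. CAA stress 2 lay within the WT values, and the log2 difference was -0.33 ± 0.13 (adjusted p 0.578 in edgeR). Cacna2d1 had 199, 247, 225 and 193 CPM in CAA and 312, 241, 253 and 260.0 CPM in WT, overlapping only through CAA stress 2 and WT stress 2, with a log2 difference of -0.30 ± 0.13 (adjusted p 0.586 in edgeR). Cacna2d2, a cerebellar and interneuron subunit, leaned the other way, with 40.7, 50.2, 38.0 and 36.8 CPM in CAA and 26.5, 42.5, 30.9 and 29.1 CPM in WT. WT stress 2 was above 3 of the 4 CAA libraries, and the log2 difference was 0.36 ± 0.15 (adjusted p 0.586 in edgeR), or 0.21 without WT stress 1 and 0.55 without WT stress 2. Long genes among those tested leaned lower in CAA. Of 2570 tested genes with at least 8000 annotated bases and a mean of at least 1 CPM, 34.7% were higher, with a median of -0.08. Of the 19 channel genes within these limits 6 were higher. The channel genes had a median annotated length of 8343 bases, against 3984 for all tested genes, and the part of length in these values was not tested.

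Under mock treatment, 28 of 38 genes were lower in CAA, against 49.3% of tested genes, with a median of -0.24. Long genes leaned the same way. Among the 2570 tested genes of at least 8000 bases and a mean of at least 1 CPM, 31.7% were higher. Their median was -0.10. Within these limits 3 of the 19 channel genes were higher, with a median of -0.36. The part of length was not tested. Of all 38, 15 had both CAA libraries below both WT libraries (39.5%, against 16.7% of tested genes) and 1 had both above (16.2% of tested genes). edgeR called 0 of 38 here (0.0116% of tested genes), with 4 at an unadjusted p under 0.05 (4.0% of tested genes), and DESeq2 called 0 (0.0946%). The smallest p was that of Cacna1i, with 76.6 and 53.3 CPM in CAA mock, against 117 and 104 CPM in WT mock. Both CAA libraries were lower, with a log2 difference of -0.76 ± 0.20 and an adjusted p of 0.998 in edgeR. Cacna1d had 17.5 and 15.9 CPM in CAA mock against 28.5 and 24.6 CPM in WT mock, and Scn8a had 147 and 145 CPM against 236 and 163 CPM, both without overlap. The log2 difference of Scn8a was -0.45 ± 0.21, -0.16 without WT mock 1 and -0.70 without WT mock 2. The family median was -0.47 without CAA mock 1, -0.15 without CAA mock 2 and -0.11 without WT mock 2, and the genes with an unadjusted p under 0.05 numbered 9, 3 and 12 in those fits, and 7 without either CAA stress library.

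Under stress, the channel genes were divided: 20 of 38 were higher in CAA, against 50.7% of tested genes, with a median of 0.06. edgeR called 0 of 38 (0.0116% of tested genes), with 5 at an unadjusted p under 0.05 (8.22%), and DESeq2 called 0 (0.0740%). Both CAA libraries were above both WT libraries for 9 genes (19.5% of tested genes) and below for 8 (20.4%). Cacng8, a TARP of hippocampal AMPA receptors, had 64.6 and 95.8 CPM in CAA stress, against 45.3 and 47.6 CPM in WT stress, at 0.79 ± 0.29 on the log2 scale with an adjusted p of 0.579 in edgeR. The libraries did not overlap. Cacna1a had 116 and 143 CPM in CAA stress, against 98.4 and 88.3 CPM in WT stress, also without overlap, at 0.48 ± 0.19 on the log2 scale (adjusted p 0.579 in edgeR). Without CAA stress 2, Cacng8 was at 0.47 and Cacna1a at 0.31 on the log2 scale. The family median was -0.04 without CAA stress 2, 0.17 without CAA stress 1, 0.10 without WT stress 1 and 0.01 without WT stress 2, and without WT stress 1 the genes with an unadjusted p under 0.05 numbered 0.

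**Figure D3:**
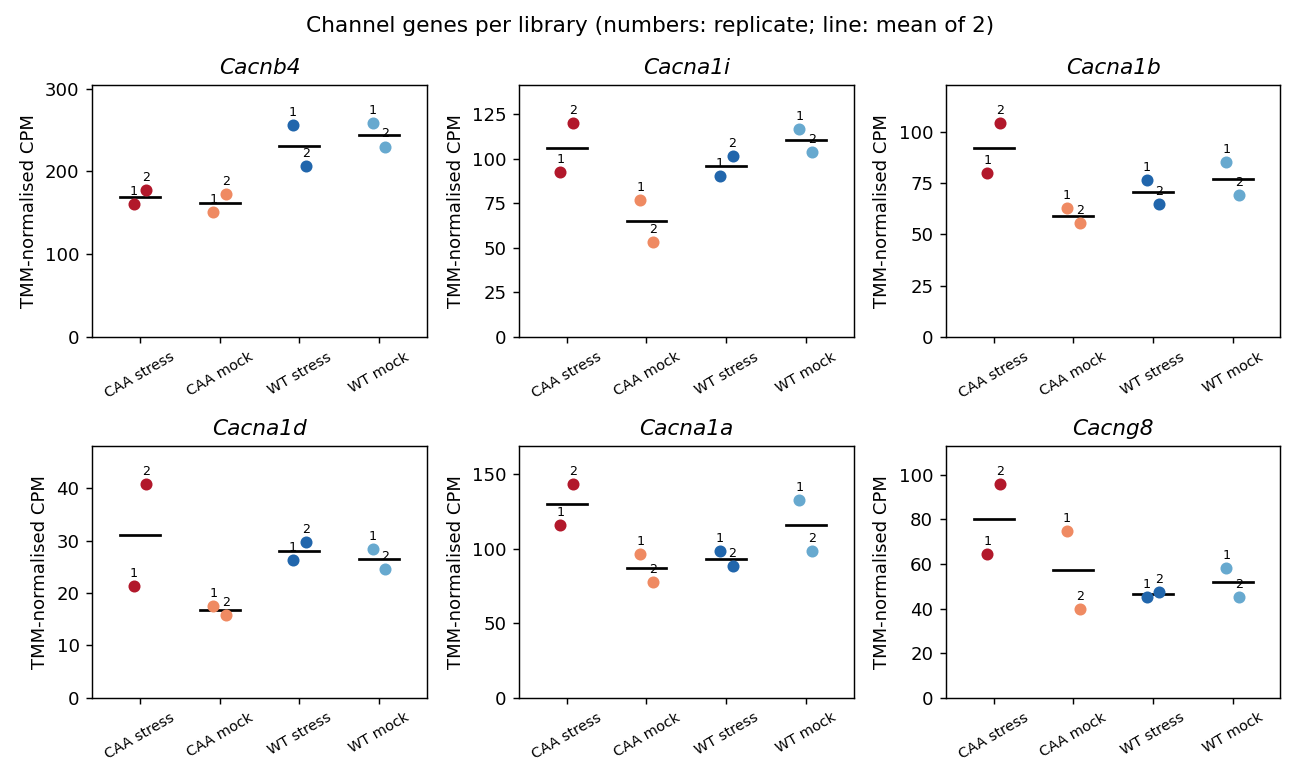
TMM-normalised CPM (each axis starts at 0) of channel genes with small p-values in the genotype or stress comparisons, by group; points are libraries, numbered by replicate, and bars mark group means. All 4 CAA libraries of Cacnb4 lie at 151 to 177 CPM, below all 4 WT libraries, while the calcium channel pores plotted have their lowest group mean in CAA mock.

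All 9 calcium channel pores had a positive log2 fold change for stress in CAA brains, but none passed the adjusted threshold. For Cacna1s it was 0.09 ± 0.70, and for Cacna1e CAA stress 1 was below both mock libraries. The 6 high-voltage-activated pores had a median log2 fold change of 0.61 and the 3 T-type pores 0.71, and 4 and 3 of them had an unadjusted p under 0.05. Over all tested genes 6.94% had such a p in edgeR, 3.68% with a positive fold change. A positive fold change at any p was found for 51.4% of tested genes. In WT brains 4 of the 6 high-voltage-activated and 1 of the 3 T-type pores were higher with stress, against 49.6% of tested genes, with medians of 0.12 and -0.21. Cacna1i had 92.3 and 119.8 CPM in CAA stress, against 76.6 and 53.3 CPM in CAA mock. Cacna1b had 79.8 and 104 CPM in CAA stress, against 62.8 and 55.4 CPM in CAA mock. Cacna1c had 56.4 and 79.9 CPM in CAA stress, against 48.9 and 35.1 CPM in CAA mock. In these 3 genes both stressed libraries exceeded both mock ones, and CAA mock 2 was the lowest and CAA stress 2 the highest. The log2 fold changes were 0.71 ± 0.20 for Cacna1i, 0.64 ± 0.18 for Cacna1b and 0.70 ± 0.20 for Cacna1c (edgeR adjusted p 0.696 each). Cacna1d had 21.3 and 40.8 CPM in CAA stress, against 17.5 and 15.9 CPM in CAA mock, or 0.90 ± 0.27 on the log2 scale, and here CAA stress 1 was much nearer to the mock libraries than to CAA stress 2. The annotated exons of Cacna1d share 589 bases with those of Chdh on the opposite strand, so that without a stated strand setting their reads cannot be fully told apart. Cacna1g had 61.7 and 96.8 CPM in CAA stress, against 37.6 and 49.2 CPM in CAA mock, again without overlap, at 0.87 ± 0.31 on the log2 scale. Without CAA stress 2, Cacna1c was at 0.42 and Cacna1d at 0.35, and without CAA mock 2, Cacna1i was at 0.47. With both left out, Cacna1i, Cacna1b, Cacna1c and Cacna1d were at 0.27, 0.34, 0.20 and 0.28.

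For the whole family, 35 of 38 genes were higher in CAA stress than in CAA mock, against 51.4% of tested genes, with a median of 0.38 beside 0.01 for all tested genes. The 16 genes with both stressed libraries above both mock ones made up 42.1%, against 18.3% of tested genes, and none had both below (19.0% of tested genes). edgeR called 0 of 38 (0.0% of tested genes) and DESeq2 called 0 (0.0902%). The 8 with an unadjusted p under 0.05 in edgeR were all higher (3.68% of tested genes). They were 4 high-voltage-activated and 3 T-type pores and the low-count Cacng1. Cacng1 met the count minimum only through stressed libraries, so its direction is not independent of how it was chosen. Single libraries moved these values. Without CAA stress 2 the median was 0.21, with 29 of 38 higher and 2 at an unadjusted p under 0.05, and without CAA mock 2 it was 0.25, with 29 higher and 4 under 0.05. Without both it was 0.16, with 25 higher and 0 under 0.05. CAA stress 2 and CAA mock 2 were the libraries with the lowest and highest mitochondrial shares and the lowest and highest mean log2 level of the myelin markers (-0.64 and 0.77 around the markers' own means), and with the highest and lowest level of the inhibitory neuron markers (0.39 and -0.67). The part of these in the stress values was not tested. Of the 2570 tested genes of at least 8000 bases and a mean of at least 1 CPM, 59.4% were higher, with a median of 0.07. Of the 19 channel genes within these limits 17 were higher.

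In WT brains the family did not lean clearly with stress: 22 of 38 genes were higher, against 49.6% of tested genes, with a median of 0.04, of -0.02 without WT stress 1 and of 0.14 without WT mock 2. edgeR and DESeq2 called 0 of 38 and 0 of all tested genes. In edgeR 2 channel genes had an unadjusted p under 0.05 (1.59% of tested genes), Scn3a and the low-count Cacng1, which met the count minimum only through stressed libraries. That number was 0 without WT mock 1, 1 without either WT stress library or either CAA mock library, and 7 without WT mock 2. Both stressed libraries were above both mock ones for 9 genes (13.2% of tested genes) and below for 2 (13.5%). Scn3a had 45.4 and 46.4 CPM in WT stress, against 26.7 and 38.9 CPM in WT mock, which did not overlap, at 0.48 ± 0.22 on the log2 scale, or 0.24 without WT mock 1 and 0.78 without WT mock 2.

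**Figure D4:**
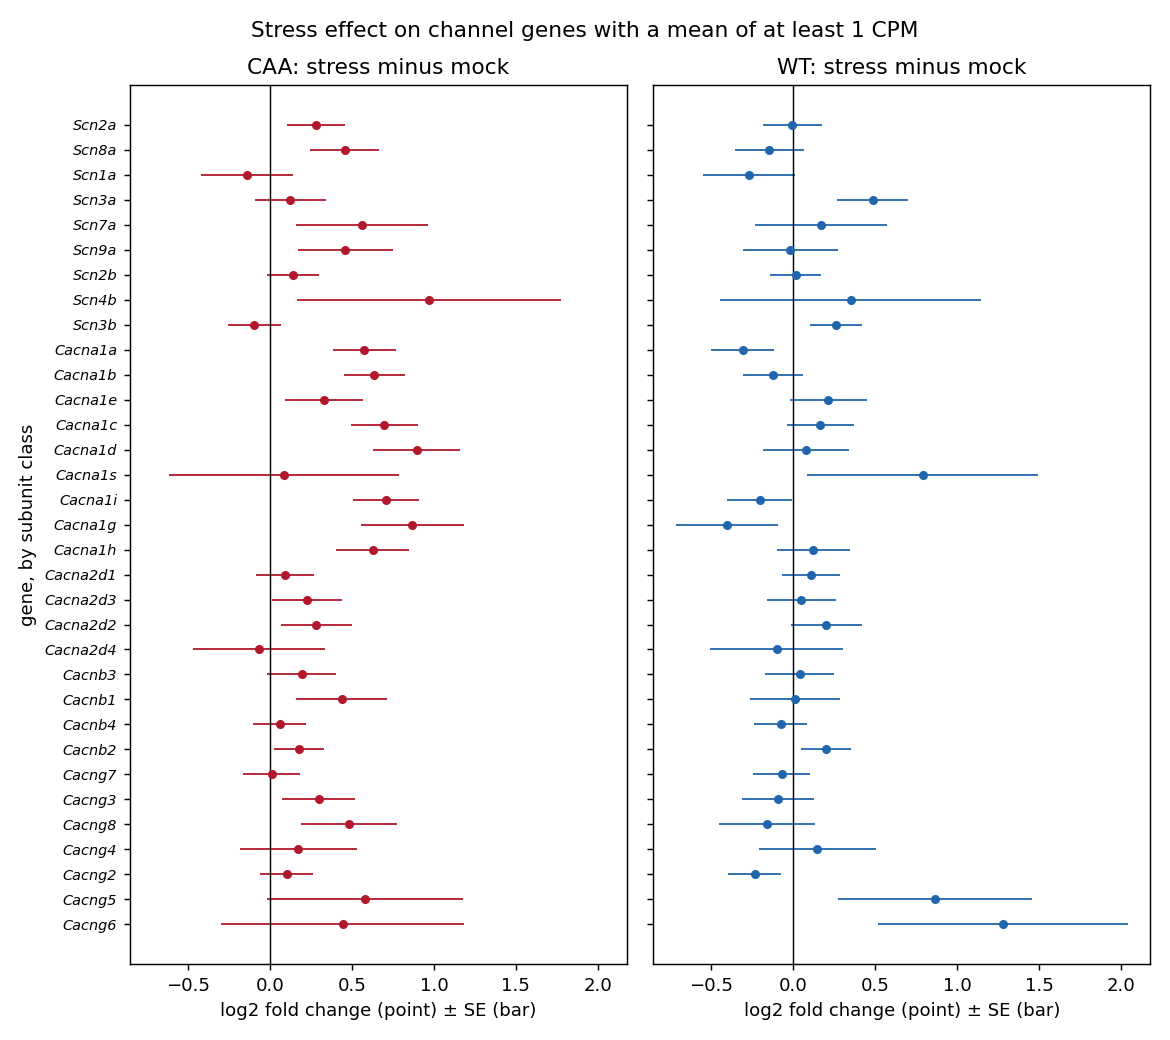
Log2 fold change of stress over mock (points) with its SE (bars) in CAA brains (left) and WT brains (right), for channel genes with a mean of at least 1 CPM. The calcium channel pores lie right of 0 in CAA, up to 0.90 for Cacna1d, and on both sides of 0 in WT.

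Whether stress acted differently in CAA and WT brains was tested as an interaction, the stress effect in CAA minus that in WT. edgeR called 0 of 38 genes (0.0% of tested genes) and DESeq2 called 0 (0.0233%). Of the 38, 5 had an unadjusted p under 0.05, all with a more positive effect in CAA (1.98% of tested genes), and 30 of 38 differences were positive (50.4% of tested genes), with a median of 0.23. That median was 0.51 without CAA mock 1, 0.40 without WT stress 1, 0.39 without WT mock 1 and 0.08 without CAA stress 2 and CAA mock 2 together. The number under 0.05 was 3 without CAA stress 2, WT stress 1 or WT mock 1, 8 without CAA stress 1 and 10 without CAA mock 1. Without CAA mock 2 and WT mock 1, the libraries with few striatal transcripts, it was 1, and Cacna1a and Cacna1i were at 0.50 and 0.59. The 5 genes included the 4 pores Cacna1a, Cacna1i, Cacna1b and Cacna1g, with log2 differences of 0.89 ± 0.27, 0.91 ± 0.28, 0.76 ± 0.26 and 1.27 ± 0.44 (edgeR adjusted p 0.995 each). Cacna1a had 116 and 143 CPM in CAA stress, 96.5 and 77.6 CPM in CAA mock, 98.4 and 88.3 CPM in WT stress and 133 and 98.3 CPM in WT mock. Both CAA stress libraries were above both CAA mock libraries, while WT mock 1 was above both WT stress libraries and WT mock 2 level with WT stress 1. Among the 2570 tested genes of at least 8000 bases and a mean of at least 1 CPM, 55.9% had a positive difference. Within these limits 16 of the 19 channel genes had one.

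Averaged over the genotypes, 31 of 38 genes were higher with stress, against 50.6% of tested genes, with a median of 0.20, of 0.12 without CAA mock 2 and of 0.06 without CAA mock 2 and CAA stress 2 together. Among the 2570 tested genes of at least 8000 bases and a mean of at least 1 CPM, 60.2% were higher. Within these limits 16 of the 19 channel genes were higher. edgeR called 0 of 38 (0.0% of tested genes) and DESeq2 called 0 (0.0175%). In edgeR 4 genes, the low-count Cacng1 among them, had an unadjusted p under 0.05 (3.82%). That number was 1 without CAA stress 2 or CAA mock 2, 2 without WT stress 2, 7 without WT mock 2, 8 without CAA stress 1 and 11 without CAA mock 1. For 2 genes, the main brain L-type channel Cacna1c and the beta subunit Cacnb2, all stressed libraries were above all mock ones (0.96% of tested genes). Cacna1c had 56.4, 79.9, 62.0 and 59.4 CPM in the stressed libraries, against 48.9, 35.1, 52.4 and 55.9 CPM in the mock ones, and the gap between the nearest libraries, CAA stress 1 and WT mock 2, was small. Its log2 fold change was 0.43 ± 0.14, with an unadjusted p of 0.0117 and an edgeR adjusted p of 0.920. Cacna1h, at 0.38 ± 0.16, had 54.8, 57.5, 42.5 and 47.8 CPM with stress and 45.8, 27.0, 38.7 and 44.2 CPM under mock, overlapping through WT stress 1, and was at 0.59 without CAA mock 1 and 0.21 without CAA mock 2. Cacnb2 had 34.9, 34.2, 39.2 and 37.0 CPM with stress and 29.6, 31.5, 33.1 and 33.3 CPM under mock. Cacng1, which encodes a skeletal muscle subunit, had 15, 1, 12 and 5 counts in the stressed libraries, against 1, 0, 0 and 1 counts in the mock ones. Those counts are too few for a fold change, and Cacng1 met the count minimum only through stressed libraries.

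Other abundant genes had groups that overlapped in some comparisons and not in others. Scn8a had 169 and 232 CPM in CAA stress, 147 and 145 CPM in CAA mock, 196 and 166 CPM in WT stress and 236 and 163 CPM in WT mock. Its CAA mock libraries were the lowest of the 8. Scn3a had 30.4 and 43.2 CPM in CAA stress and 33.3 and 34.2 CPM in CAA mock, so its CAA groups overlapped. Cacna1e had 128 and 231 CPM in CAA stress, 147 and 138 CPM in CAA mock, 207 and 167 CPM in WT stress and 162 and 160.5 CPM in WT mock, and the CAA stress libraries were its lowest and its highest. Cacng8 had 74.9 and 39.9 CPM in CAA mock and 58.4 and 45.4 CPM in WT mock, which overlapped, unlike the stressed groups.

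Some auxiliary subunits gave the steadiest values, while others varied widely. The highest library was 1.3 times the lowest for Scn2b and 1.33 times for Cacnb2 and Cacng7. It was 4.39 times the lowest for Scn4b and 4.79 times for Cacng5. Scn2b had 285 and 247 CPM in CAA stress, 253 and 229 CPM in CAA mock, 296 and 252 CPM in WT stress and 286 and 257 CPM in WT mock. Cacnb2, a beta subunit better known from heart, had 34.9 and 34.2 CPM in CAA stress, 29.6 and 31.5 CPM in CAA mock, 39.2 and 37.0 CPM in WT stress and 33.1 and 33.3 CPM in WT mock. For both genes the group means lay close together, with CAA mock lowest on average. Cacng2, stargazin, mutated in the stargazer mouse, had 75.2 and 73.7 CPM in CAA stress, 69.0 and 69.8 CPM in CAA mock, 74.8 and 67.5 CPM in WT stress and 94.4 and 73.0 CPM in WT mock, and WT mock 1 alone stood out. Its annotated exons share 323 bases with the opposite-strand gene A730060N03Rik, which averaged 39.4 counts. Cacnb1 had 106 and 142 CPM in CAA stress, 122 and 61.5 CPM in CAA mock, 98.7 and 103 CPM in WT stress and 95.2 and 105 CPM in WT mock. Cacnb3 had 228 and 244 CPM in CAA stress, 256 and 157 CPM in CAA mock, 246 and 274 CPM in WT stress and 235 and 271 CPM in WT mock. Cacng3 had 69.1 and 84.3 CPM in CAA stress, 77.6 and 47.4 CPM in CAA mock, 88.2 and 73.1 CPM in WT stress and 84.9 and 87.0 CPM in WT mock. In these 3 genes CAA mock 2 was the lowest of the 8 libraries, by a wide margin. Scn3b ranged from 100.4 to 142 CPM, Cacna2d3 from 55.8 to 95.3 CPM and Cacng7 from 184 to 246 CPM.

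Scn4b, Cacng5 and Cacng4 were lowest in the 2 libraries with few striatal transcripts, while other genes with a wide spread, such as Cacna1g and Cacng6, were not. Scn4b had 320.4 and 136 CPM in CAA stress, 158 and 74.7 CPM in CAA mock, 328 and 192 CPM in WT stress and 96.7 and 310.4 CPM in WT mock. Its lowest libraries were CAA mock 2 and WT mock 1, that pair. Cacng5 had 16.9 and 26.2 CPM in CAA stress, 16.9 and 12 CPM in CAA mock, 30.3 and 36.9 CPM in WT stress and 7.69 and 29.2 CPM in WT mock, again lowest in that pair, and so was Cacng4, at 49.3 CPM in CAA mock 2 and 35.3 CPM in WT mock 1. Scn1a, chosen after its values were seen, was highest in the pair, with 149 CPM in CAA mock 2 and 178 CPM in WT mock 1, against 80.4 to 123 CPM in the other 6 libraries. Cacna1s, at 0.563 and 0.377 CPM in that pair, ranged from 1.29 to 1.99 CPM elsewhere, and Cacng6 from 0.451 to 2.68 CPM over all libraries. Cacna1g was lowest in WT stress 1 (36.3 CPM). For Cacng5, the highest library, WT stress 2, was also the one with the highest level of the olfactory bulb markers, at 1.34, and CAA stress 1, where it had 16.9 CPM, had a bulb level of -0.70 and a striatal level of 0.85. The part of the striatal, hypothalamic and bulb markers in these values was not tested.

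**Figure D5:**
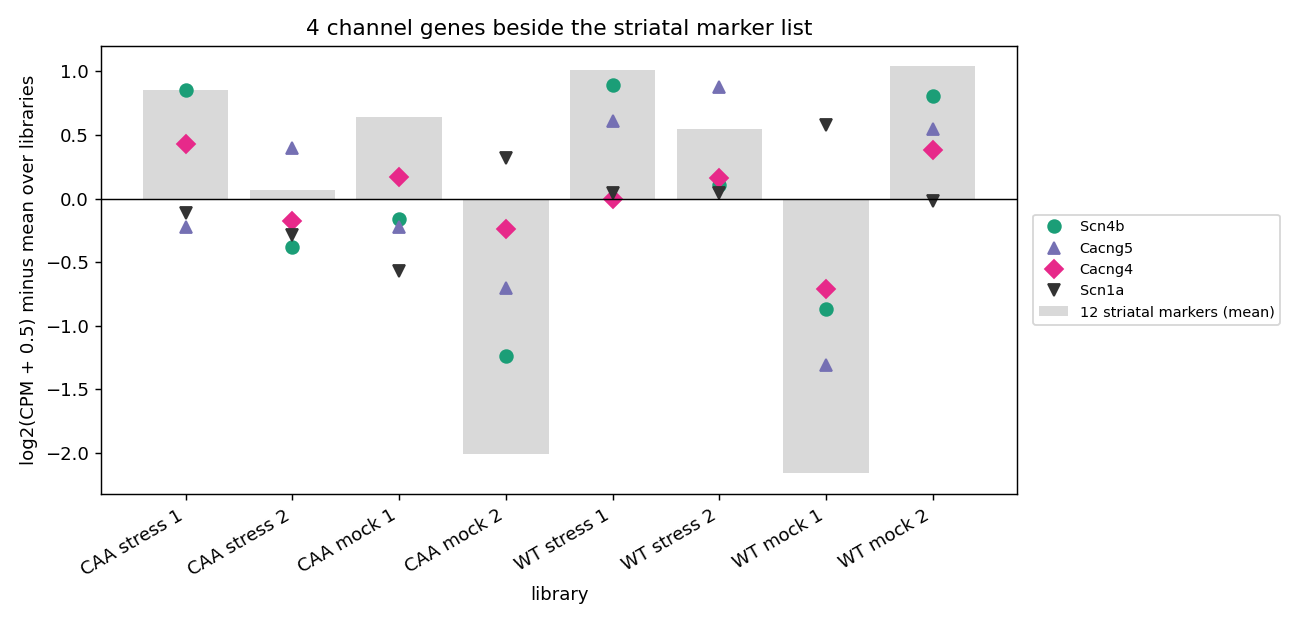
Log2(CPM + 0.5) minus the gene's mean over 8 libraries for Scn4b, Cacng5, Cacng4 and Scn1a (symbols), with the mean of 12 striatal markers on the same scale (grey bars), per library. The bars are lowest in CAA mock 2 (-2.01) and WT mock 1 (-2.16), where Scn4b, Cacng5 and Cacng4 are also lowest and Scn1a is highest.

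Scn4b averaged 172 ± 105 CPM in CAA and 232 ± 108 CPM in WT (SD, n = 4 each), and its averaged CAA fold of -0.50 ± 0.56 on the log2 scale was within its SE. A genotype difference was not detectable at this spread.

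The sensory and muscle channels were at the limit of detection. Scn10a had 2 and 20 counts in CAA stress, 4 and 0 in CAA mock, 7 and 10 in WT stress and 1 and 12 in WT mock, and Scn11a had 14 and 9, 6 and 1, 0 and 3, and 0 and 11 counts in the same order of groups. Of 10 peripheral sensory neuron markers 7 were measurable, and Mrgprd and Tmem233 were at 0. Of 10 skeletal muscle markers 4 were measurable, and Tnnc2 was at 0. Scn9a had 80 to 139 counts per library, and its exons share 180 bases with the opposite-strand gene Gm13629, which averaged 41.6.

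Partners of the channels, listed from general knowledge, gave 0 genes past the adjusted edgeR threshold in all 7 comparisons, with 16 of 18 sodium channel partners and 23 of 24 calcium channel partners tested. For CAA averaged over treatment, 3 of the 16 and 4 of the 23 had an unadjusted p under 0.05, against 8.38% of all tested genes. Negative fold changes were found for 9 of the 16 and 16 of the 23, against 49.8% of all tested genes. The genes named next were picked for their small p within these lists. Fgf14, an intracellular fibroblast growth factor homologous factor that binds sodium channel tails at the axon initial segment, had 37.0, 39.5, 37.8 and 35.6 CPM in CAA, against 55.4, 49.99, 44.5 and 48.6 CPM in WT. Its relative Fgf12 had 160.4, 192, 208 and 214 CPM in CAA, against 265, 249.5, 241 and 248 CPM in WT. For both genes all CAA libraries were below all WT libraries, at -0.40 ± 0.11 and -0.38 ± 0.10 on the log2 scale (adjusted p 0.508 each in edgeR). Over all tested genes 2.76% were separated in this way. Calm2, 1 of the genes for calmodulin, the calcium sensor bound to both channel families, was also below WT in every CAA library, with 1531, 1345, 1945 and 1889 CPM in CAA, against 2647, 2044, 2030.1 and 2379 CPM in WT. Its log2 fold change was -0.45 ± 0.12 (edgeR adjusted p 0.508). For stress in CAA, 2 of the 16 and 4 of the 23 had an unadjusted p under 0.05, against 6.94% of all tested genes, in both directions. Calm2 was at -0.42 ± 0.17, while Ahnak, a large scaffold protein, was at 1.03 ± 0.31 on the log2 scale. Cabp1, a calcium-binding protein that modulates calcium channels, had 109.0 and 128 CPM in CAA stress, against 94.97 and 52.9 CPM in CAA mock, with CAA mock 2 lowest as for the pores (0.68 ± 0.23, edgeR adjusted p 0.696).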

How the data were processed

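Libraries were prepared with an Illumina kit from total RNA of mouse brain, per the labels' protocols, and the authors deposited raw read counts per gene, made with HISAT2 2.0.5 and featureCounts 1.5.0-p3 on mm10, per the submitters' processing notes. The sources used here give neither annotation release nor strand setting. FPKM values were deposited by the authors. Dividing counts by gene length and then by FPKM gave 1 constant per library. It was 0.9889 (WT mock 2) to 1.054 (CAA stress 2) of the library's total counts.

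Libraries were grouped by genotype and treatment. The main test was the quasi-likelihood test of edgeR 4.0.16 (R 4.3.3) on 17182 genes kept by filterByExpr (minimum count 10, minimum total 15), with TMM scaling and 1 mean per group over all 8 libraries (4 residual degrees of freedom; the common biological coefficient of variation was 0.206). Compared in 7 ways were CAA minus WT under mock, under stress and averaged, stress minus mock in WT, in CAA and averaged, and the interaction. P-values were two-sided and adjusted by Benjamini-Hochberg over all tested genes (threshold 0.05), and CPM are TMM-normalised. DESeq2 1.42.0 was the alternative tool. The procedure was tested on simulated data. An exact permutation test of 2 against 2 libraries cannot go below p = 0.333. Depth was alike in all libraries, and low genes are given as counts.

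The members and lists were chosen with earlier results of these data known. Named were, per comparison, genes past the threshold or else those with the 5 smallest p, besides the main brain subunits, the 6 with the widest range and up to 3 partners per list; other genes were chosen after their values were seen. Some genes that the rule names are counted in the totals over the family but not reported here. Gene coordinates are those of the deposited table and matched GENCODE vM21 for all 38 genes. Alternatives were another scaling, DESeq2, no filter, a replicate block, a sex term, only the libraries compared, and libraries left out.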

Additional observations from a re-analysis of the deposited data

How the results depend on the processing

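No channel gene passed the adjusted edgeR threshold in any comparison with DESeq2's size factors, with a replicate block, with a term for sex, without the low-striatum pair, with only the libraries compared, or with any single library left out, where the count was 0 throughout. Without the filter on low counts edgeR called 2 channel genes for CAA averaged (Cacnb4 and Cacng8), 1 for CAA under mock (Cacna1i), 2 for CAA under stress (Cacng8 and Cacna1g), 4 for stress in CAA (Cacna1i, Cacna1g, Cacna1c and Cacna1d) and 1 for the interaction (Cacna1g). DESeq2 called 1 for CAA averaged (Cacnb4). Over all genes, calls without the filter numbered 223, 82, 120, 49, 11, 112 and 17 for CAA averaged, under mock and under stress, stress averaged, in WT and in CAA, and the interaction, beside 2, 2, 2, 0, 0, 0 and 0 with it, and DESeq2 called 46, 15, 10, 3, 0, 14 and 4. With 1 library left out edgeR called 2 to 5, 1 to 3, 0 to 2, 0 to 4, 0 to 2, 0 and 0 to 1. The cause was not tested. Of 544 alternative values for 35 named fold changes, none turned its direction. The 35 were picked by their p in these same libraries, so a kept direction cannot serve as support for them. With 1 library left out, the family median reached -0.04 from 0.06 for CAA under stress and -0.02 from 0.04 for stress in WT. In the other comparisons it kept its sign. Cacnb4, averaged over treatment, ranged from -0.60 to -0.44 on the log2 scale, with adjusted p between 0.0129 and 0.965. The family median for stress in CAA was 0.21 to 0.54 with 1 library left out, 0.16 without CAA stress 2 and CAA mock 2 (an alternative added after seeing the data) and 0.49 with a term for sex. Deviations of same-numbered libraries from their group means correlated at -0.27 to 0.14, so the numbers were not taken as pairs; with the replicate block the unadjusted counts were 3 for CAA averaged and 8 for stress in CAA, beside 4 and 8. With 2 libraries per group, 1 library can decide a group's value, and region, myelin content and sex differ between libraries of a group.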

Other observations

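The AMPA receptor subunits and their other auxiliaries, partners of the TARPs, gave 0 of 14 genes past the adjusted edgeR threshold in every comparison. For CAA averaged over treatment, 3 of 14 had an unadjusted p under 0.05, against 8.38% of all tested genes. In the list 6 of 14 were higher and 8 lower, while 49.8% of all tested genes were lower. Gria2, the subunit that makes AMPA receptors impermeable to calcium, had 361, 511, 446 and 403 CPM in CAA stress 1 and 2 and CAA mock 1 and 2, against 642, 532, 522 and 571 CPM in WT stress 1 and 2 and WT mock 1 and 2. All CAA libraries were below all WT libraries (as in 2.76% of tested genes), at -0.40 ± 0.13 on the log2 scale (edgeR adjusted p 0.538). Dlg2, a postsynaptic scaffold, had 439, 463, 469 and 440.4 CPM in CAA, against 597, 537, 547 and 608 CPM in WT, at -0.34 ± 0.10 (edgeR adjusted p 0.531). Shisa6, an AMPA receptor auxiliary, had 13.96, 16.4, 11.99 and 11.3 CPM in the stressed libraries, against 21.96, 33.2, 30.02 and 12.3 CPM in the mock ones, where WT mock 2 lay within the stressed values, at -0.86 ± 0.27 for stress averaged (edgeR adjusted p 0.920).

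Of the sodium leak channel complex, which contributes to resting excitability, 4 of 7 listed symbols were in the table and tested. Nalcn, its pore, was at -0.18 ± 0.10 for CAA averaged and at 0.07 ± 0.14 for stress in CAA on the log2 scale (edgeR adjusted p 0.643 and 0.913), and 0 of the 4 passed the threshold in any comparison.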
